A study of Homo sapiens with 10 samples.

Results

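The 40 genes described here encode the proteins that display peptides to T cells on major histocompatibility complex (MHC) molecules and the proteins that cells make in response to interferon. They were taken as a list of named MHC, peptide loading and interferon response genes, and all 40 were found by symbol among the 20007 protein-coding genes of GENCODE release 44. By role the list holds 5 class I heavy chains, 6 genes of the class I light chain, peptide transport, loading and immunoproteasome, 9 class II molecules, 2 MHC transactivators, 4 interferon signalling factors, 13 interferon effectors and 1 checkpoint ligand. The list names genes and uses no measured value, though its members were chosen with earlier results of these data known.

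The study profiled 2 histone marks by ChIP-seq in a pair of human prostate cancer cell lines. C4-2B is a castration-resistant adenocarcinoma line, and C4-2BER is a single line derived from it under continued enzalutamide, an androgen receptor inhibitor, which its labels call neuroendocrine like. Each of H3K27ac and H3K18ac, acetylation of histone H3 at lysine 27 or lysine 18, had 2 libraries per line beside 1 input library per line, 10 samples in all, from cells grown in RPMI with serum and fixed with DSG and formaldehyde. The 2 libraries of a mark and line were merged by the authors before peaks were called, so each of the 4 peak lists is a single pooled measurement without replicate error, no test between the lines could be made, and library depth is unknown. The lines differ in drug exposure as well as in lineage features, and these cannot be told apart.

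Class I molecules, made of a heavy chain and B2M, carry peptides from inside the cell to the surface of nearly all cell types for CD8 T cells, after the proteasome has cut the peptides and TAP1 and TAP2 have moved them into the endoplasmic reticulum. Class II molecules are usually made by professional antigen presenting cells and are switched on in other cells by interferon gamma through the transactivator CIITA. Interferons signal through JAK kinases to STAT and IRF factors, which bind interferon-stimulated response elements (ISRE) and gamma-activated sequences (GAS) in the promoters of effector genes. H3K27ac and H3K18ac are both placed by the acetyltransferases p300 and CBP and mark active promoters and enhancers.

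Each promoter was given the strongest peak, by fold enrichment, found within 1000 bp of its Ensembl canonical transcription start site (TSS). A fold enrichment is a ratio of ChIP signal to local background in the same list. A promoter was called increased in C4-2BER where only C4-2BER had a peak, or where the C4-2BER value was at least 2 times that of C4-2B, and decreased in the mirrored case. The lists hold 68034 and 72971 H3K27ac peaks in C4-2B and C4-2BER, and 198451 and 197948 H3K18ac peaks. Over all genes with a peak in both lines, promoter fold enrichment was lower in C4-2BER, with a median log2 ratio of -0.51 for H3K27ac over 13389 genes and -0.34 for H3K18ac over 15839 genes, and changes of the 40 genes are read against that shift. The 7 luminal prostate markers examined all carried H3K27ac promoter peaks in both lines. Among neuroendocrine markers, SYP and ENO2 carried H3K27ac promoter peaks in both lines, and CHGA, INSM1 and NCAM1 in neither.

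The 40 genes gained H3K27ac promoter peaks in C4-2BER more often than they lost them. An H3K27ac promoter peak was present at 23 of the 40 genes in C4-2B, where 69.2% of all protein-coding genes had such a peak, and at 31 in C4-2BER, where 69.6% did. For H3K18ac the counts were 30 of 40 in C4-2B, against 83.9% of all genes, and 35 of 40 in C4-2BER, against 81.2%. The 40 genes thus stood below the genome share for both marks in C4-2B. In that line 9 of the 40 had H3K18ac alone at the promoter, beside 3019 of the 20007 genes. An H3K27ac peak in C4-2B only was at 0 members, where 455 of the 20007 genes had that state. For H3K18ac it was at 1 member, where 939 genes had that state.

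H3K27ac was called increased at 10 of the 40 promoters, against 3.31% of all protein-coding genes, and decreased at 1, against 8.02%. H3K18ac was called increased at 6, against 2.10%, and decreased at 1, against 6.12%. Both marks were called increased at 4 promoters, those of HLA-DQB1, IFIT1, IFIT2 and OAS1, against 0.350% of all genes. None of the 4 kept its H3K18ac call among peaks of at least 4-fold. Of the 17 members without an H3K27ac promoter peak in C4-2B, 8 had a peak in C4-2BER, against 8.76% of the 6163 genes in that state. For H3K18ac it was 6 of 10, against 12.3% of 3229 genes. After C4-2BER values were rescaled to a median log2 ratio of 0, H3K27ac was called increased at 13 members and decreased at 0, against 941 increased and 542 decreased among all genes, where the values as deposited gave 663 and 1604.

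**Figure D1:**
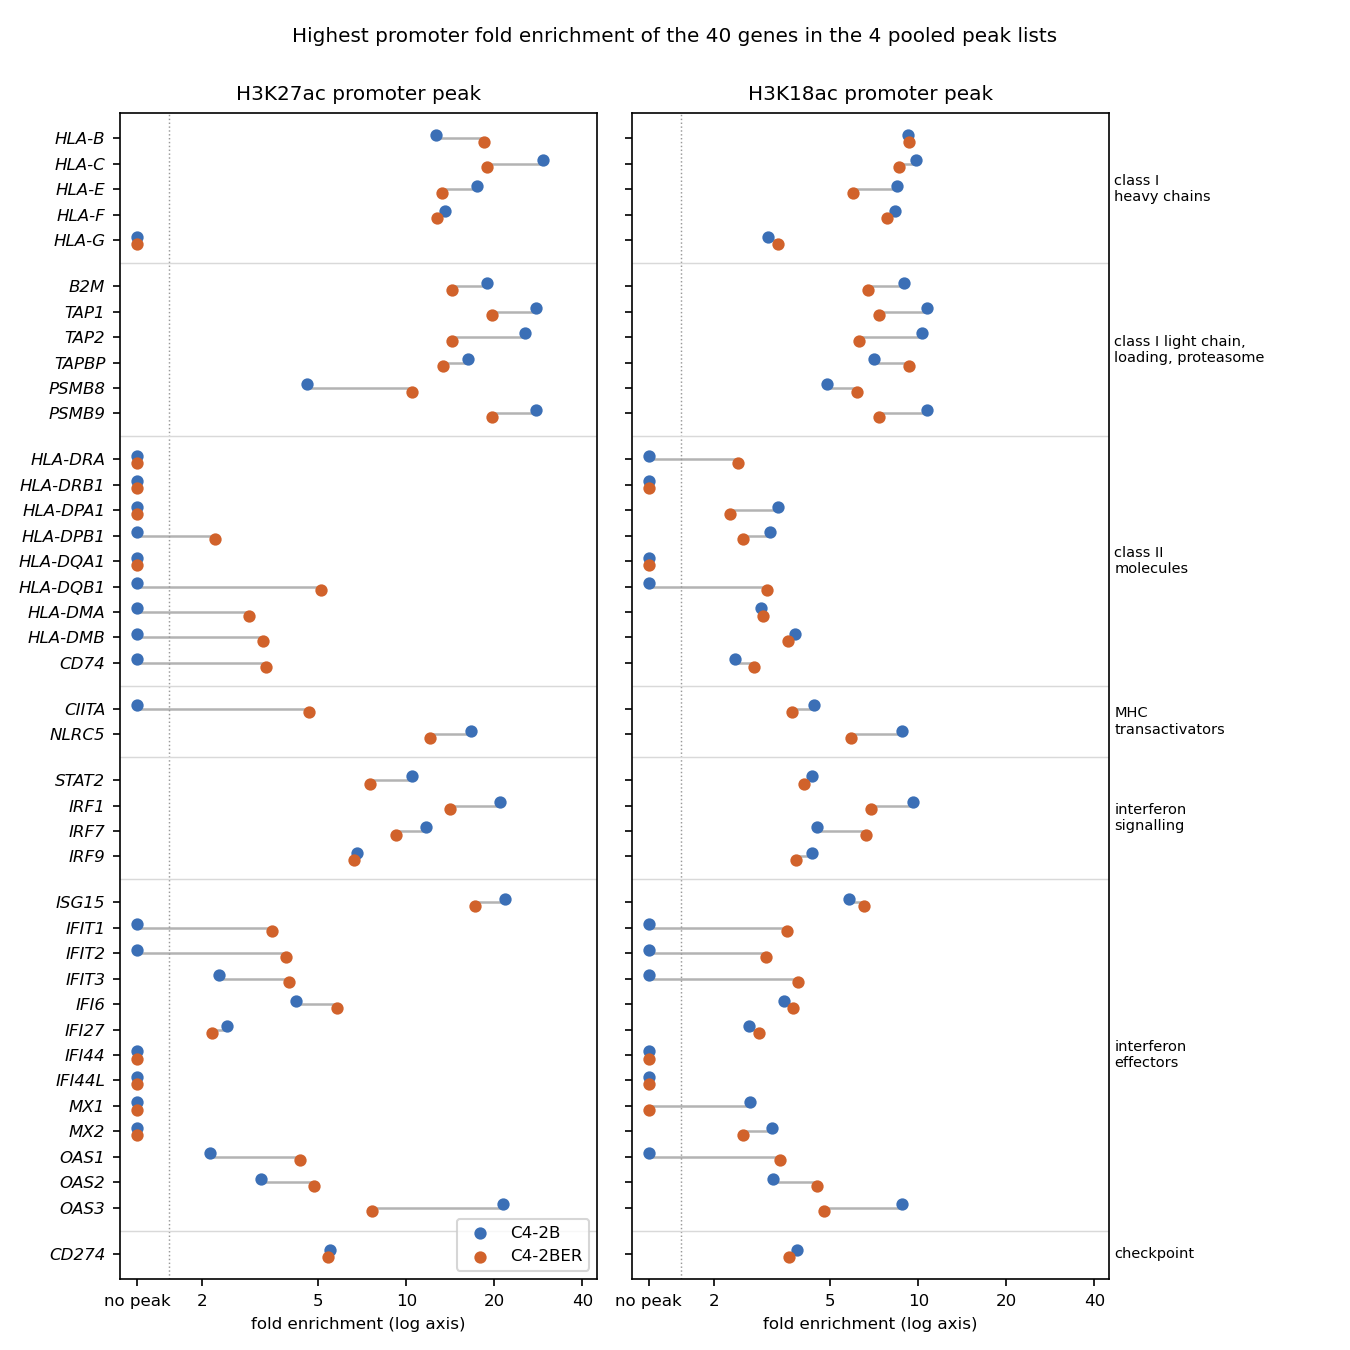
Highest promoter fold enrichment (log axis, with promoters without a peak drawn at the left) of each of the 40 genes in C4-2B (blue) and C4-2BER (orange), H3K27ac on the left and H3K18ac on the right, grouped by role. Class I genes other than HLA-G and PSMB8 lie to the right for H3K27ac in both lines, and 5 of the 9 class II molecules, with CIITA, IFIT1 and IFIT2, have an H3K27ac peak in C4-2BER only.

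The gained peaks were weak. The 8 H3K27ac promoter peaks present in C4-2BER only had a median fold enrichment of 3.39, from 2.22 to 5.09, beside a median of 2.60 over the 540 genes of the genome in that state. The 6 H3K18ac peaks present in C4-2BER only had a median of 3.21, from 2.42 to 3.89, beside 2.49 over 398 genes. By comparison the median H3K27ac promoter fold enrichment of members with a peak in both lines was 13.6 in C4-2B and 12.01 in C4-2BER. Values of this size were also listed in C4-2B, where 47.1% of the H3K27ac peaks had a lower fold enrichment than the CD74 promoter peak of C4-2BER, and 2.25% had a lower value than the weakest, at HLA-DPB1. At a like fold enrichment, however, peaks of C4-2BER carried more significance. The median −log10 q-value of H3K27ac peaks of 3-fold to 4-fold was 5.36 in C4-2B and 7.85 in C4-2BER, and for H3K18ac it was 4.60 and 6.86. The part of that difference in the gained peaks was not tested.

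All 8 promoters that gained H3K27ac carried H3K18ac in C4-2BER, as did 93.7% of the 540 genes of the genome that gained H3K27ac. In C4-2B, 5 of the 8 already had an H3K18ac promoter peak, those of HLA-DPB1, HLA-DMA, HLA-DMB, CD74 and CIITA, whereas HLA-DQB1, IFIT1 and IFIT2 had none. Across the genome 85.6% of the 540 genes that gained H3K27ac had H3K18ac in C4-2B. CIITA, HLA-DPB1, HLA-DMA, HLA-DMB and CD74 thus gained H3K27ac where H3K18ac was already listed, while HLA-DQB1, IFIT1 and IFIT2 gained both marks.

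**Figure D2:**
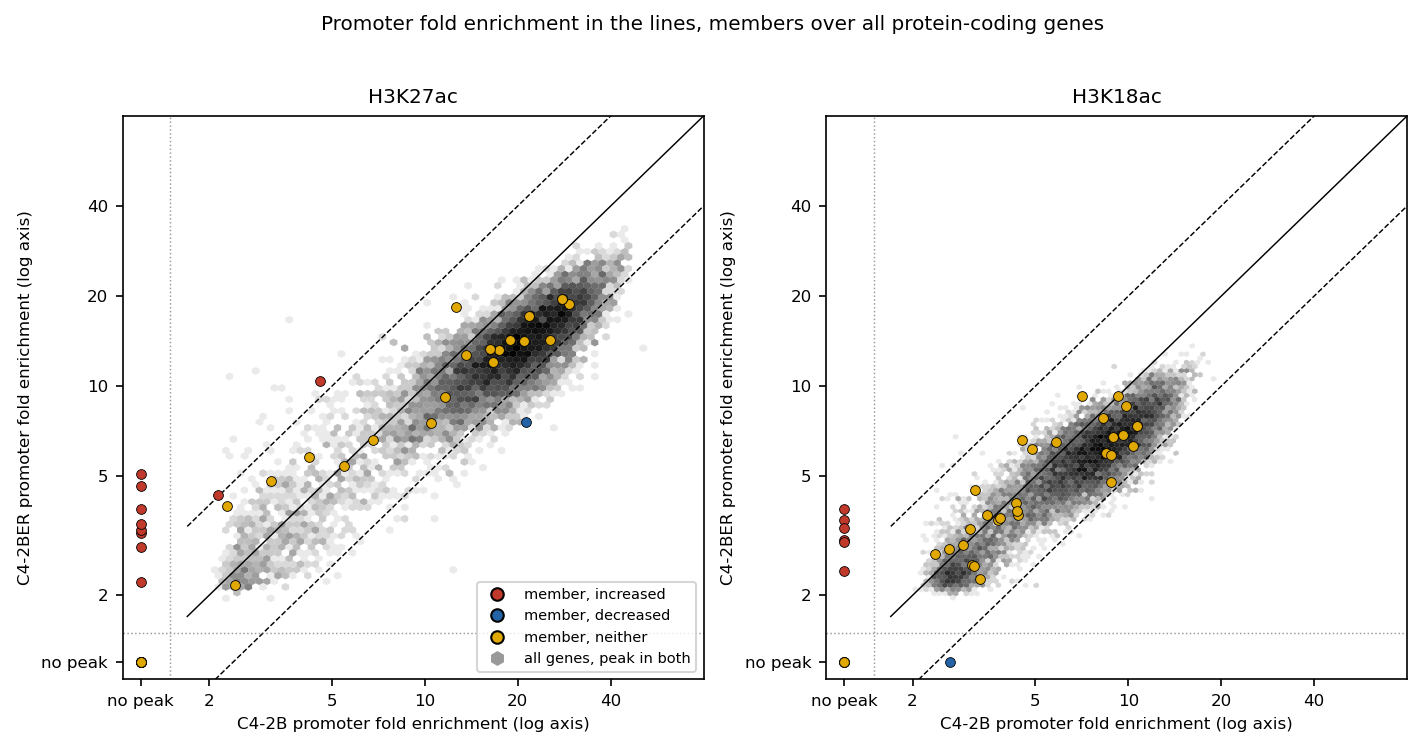
Promoter fold enrichment in C4-2B (horizontal, log axis) against C4-2BER (vertical, log axis) for H3K27ac and H3K18ac, with genes that have a peak in both lines as grey hexagons, darker where more genes fall, and the 40 genes as points. Solid and dashed lines mark equal values and a ratio of 2, and the column at the left holds the members with no peak in C4-2B, from 2.22 to 5.09 in C4-2BER for H3K27ac.

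Of the 5 class I heavy chain genes, 4 carried H3K27ac at the promoter in both lines, and no member of the group was called increased or decreased. HLA-C, a classical class I heavy chain (ENSG00000204525.18, chr6:31268749-31272130), had the highest H3K27ac promoter fold enrichment of the list in C4-2B, 29.4, and 18.9 in C4-2BER, a log2 ratio of -0.64. HLA-B, the other classical heavy chain on the list (chr6:31353872-31367067), had 12.6 in C4-2B and 18.4 in C4-2BER, a log2 ratio of 0.55. HLA-B thus had the lower value in C4-2B and nearly the value of HLA-C in C4-2BER, and its promoter moved from above 50.03% to above 91.9% of all promoters of the list. HLA-B H3K18ac was 9.26 and 9.29. HLA-E, which presents leader peptides to natural killer cell receptors, and HLA-F had 17.4 and 13.6 in C4-2B and 13.2 and 12.7 in C4-2BER for H3K27ac. HLA-G, a class I molecule best known from the placenta, had no H3K27ac promoter peak in either line and H3K18ac of 3.07 and 3.32.

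The 6 genes of the light chain, transport, loading and immunoproteasome group all had promoter peaks of both marks in both lines, and 1 of them was called increased. PSMB8, an interferon-induced catalytic subunit of the immunoproteasome (ENSG00000204264.12, chr6:32840717-32844679, minus strand), had 4.57-fold H3K27ac enrichment at its promoter in C4-2B and 10.4-fold in C4-2BER, a log2 ratio of 1.19. Its H3K18ac was 4.89 and 6.18. The H3K27ac peak, over exon 1 and part of intron 1, was 1527 bp wide in C4-2B and 2273 bp in C4-2BER. Its neighbour PSMB9, another immunoproteasome subunit, shares a peak with TAP1, a peptide transporter subunit, because their start sites lie 488 bp apart. That shared H3K27ac peak had 27.7 in C4-2B and 19.6 in C4-2BER, a log2 ratio of -0.50 beside the genome median of -0.51. TAP2, the other transporter subunit, had 25.5 and 14.3, a log2 ratio of -0.83. B2M, the class I light chain, had 18.8 and 14.3, and TAPBP, the tapasin that loads peptides, had 16.3 and 13.3.

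Class II genes had no H3K27ac promoter peak at any of the 9 genes in C4-2B and had such a peak at 5 of 9 in C4-2BER. HLA-DQB1, a class II beta chain (ENSG00000179344.17, chr6:32659467-32668383, minus strand), had no promoter peak of either mark in C4-2B and 5.09 for H3K27ac and 3.05 for H3K18ac in C4-2BER. Its H3K27ac peak, 429 bp wide, ran from -77 to 351 bp relative to the start site, over exon 1 and into intron 1. The H3K27ac call was kept under all 12 alternative ways of calling, though rescaling, another ratio and presence alone cannot change such a call. The H3K18ac call was lost among peaks of at least 4-fold and among those whose −log10 q-value reached 5. HLA-DMA and HLA-DMB, which make the HLA-DM exchange factor that helps peptides onto class II molecules, had no H3K27ac promoter peak in C4-2B and 2.90 and 3.23 in C4-2BER. CD74, the invariant chain that guards the class II groove and guides the complex to endosomes, had 3.31 in C4-2BER only, in a peak of 4636 bp. HLA-DPB1, another beta chain, had 2.22 in C4-2BER only, and this peak had a −log10 q-value of 2.91. The same peak lies in intron 1 of HLA-DPA1, which runs the other way. The H3K27ac calls of HLA-DMA, HLA-DMB, CD74 and HLA-DPB1 were all lost among peaks of at least 4-fold. That of HLA-DPB1 was also lost where a −log10 q-value of 5 was required. With all annotated start sites HLA-DMA turned to a C4-2BER minus C4-2B difference of -10.27 in fold enrichment. That value came from a peak at an annotated start at -15347 bp from the canonical start, which also covers the start of BRD2. H3K18ac differed little at these promoters, with 2.90 and 2.95 at HLA-DMA, 3.79 and 3.57 at HLA-DMB, 2.37 and 2.75 at CD74 and 3.12 and 2.53 at HLA-DPB1 in C4-2B and C4-2BER.

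The other class II members showed little acetylation at the canonical start. HLA-DRA, the invariant partner of the DR beta chains, had no H3K27ac promoter peak in either line and an H3K18ac peak of 2.42 in C4-2BER only, which lay from -1823 to -948 bp relative to its start site. HLA-DPA1 had no H3K27ac promoter peak and H3K18ac of 3.30 and 2.27, although an H3K27ac peak of 3.25 lay over its exon 2 in C4-2BER only. That peak covered 3 of the 8 annotated starts of HLA-DPA1. HLA-DRB1 and HLA-DQA1, a DR beta chain and a DQ alpha chain, had no promoter peak in any list, and the nearest H3K27ac peak of C4-2BER lay 26068 and 20191 bp from their start sites. The 2 leukocyte genes PTPRC and CD3E had no promoter peak in any list, and of 6 leukocyte markers 1 had an H3K27ac promoter peak in C4-2B (LYZ, 6.90) and 0 in C4-2BER.

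The promoters of HLA-DQB1 and HLA-DRB1 are shown because they belong to like genes at the ends of the class II range. HLA-DQB1 gained both marks at its promoter, while HLA-DRB1 had no promoter peak and a single peak over its body, of H3K18ac at 3.17 in intron 1 in C4-2B. Both hold CCAAT, which in a 300-base window from 250 before to 50 after the RefSeq start was in the promoters of 18 of the 32 members with a RefSeq promoter and in 36.6% of 15343 protein-coding genes. The stretches are the 250 bases before the RefSeq start (build GRCh38.p14, 5′ to 3′ on the gene's strand), at chr6:32666658-32666907 and chr6:32589849-32590098, with CCAAT on either strand in capitals.
HLA-DQB1: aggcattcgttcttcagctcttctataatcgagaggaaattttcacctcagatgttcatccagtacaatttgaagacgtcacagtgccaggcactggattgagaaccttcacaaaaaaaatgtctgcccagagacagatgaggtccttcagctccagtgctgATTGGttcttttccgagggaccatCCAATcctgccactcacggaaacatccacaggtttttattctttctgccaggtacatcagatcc
HLA-DRB1: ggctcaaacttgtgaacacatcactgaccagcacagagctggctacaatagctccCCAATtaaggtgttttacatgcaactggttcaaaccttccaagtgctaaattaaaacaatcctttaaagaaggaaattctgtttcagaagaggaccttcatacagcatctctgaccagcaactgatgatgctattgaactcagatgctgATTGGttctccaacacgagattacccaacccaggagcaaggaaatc
HLA-DQB1 holds the letters at -88 to -84 and at -64 to -60 bases from the start, and HLA-DRB1 at -195 to -191 and at -46 to -42. Of the 8 class II members with a RefSeq promoter, 7 hold CCAAT, with and without a peak in C4-2BER.

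CIITA, the master transactivator of class II genes (ENSG00000179583.21, chr16:10866222-10943021), had no H3K27ac peak within 1000 bp of its canonical start in C4-2B and 4.63 in C4-2BER, while NLRC5, its counterpart for class I genes, had strong peaks in both. The C4-2BER peak began 102 bp after the start site and ran for 3152 bp over exon 1 and intron 1. In C4-2B a narrower H3K27ac peak of 2.81 lay 1457 to 2334 bp after the start, outside the window, so the gain was lost with a window of 2000 bp. With all annotated start sites the direction turned, to a C4-2BER minus C4-2B difference of -5.93 in fold enrichment. That value came from a peak at an annotated start 63517 bp downstream, which also covers the start of DEXI. Upstream of the canonical start, from -6353 to -4700 bp in C4-2BER, an H3K27ac peak had 2.40 in C4-2B and 6.94 in C4-2BER. An intron 1 peak that began 5406 bp after the start in C4-2B had 6.83 and 6.39. CIITA H3K18ac was 4.39 and 3.71. NLRC5 had H3K27ac of 16.6 in C4-2B and 12.01 in C4-2BER, and H3K18ac of 8.81 and 5.90.

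The 4 interferon signalling factors had promoter peaks of both marks in both lines, and none was called increased or decreased. IRF1, a transcription factor induced by interferon gamma, had the highest H3K27ac of the group, 20.9 in C4-2B and 14.1 in C4-2BER, a log2 ratio of -0.57. IRF7, the factor that amplifies type I interferon, had 11.6 and 9.19. Its H3K18ac was 4.52 and 6.61, the highest log2 ratio of that mark among members with a peak in both lines, 0.55. STAT2 had 10.5 and 7.52 and IRF9, its partner in the complex that binds the ISRE, had 6.80 and 6.60.

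Of the 13 interferon effectors, 4 were called increased in either mark, 2 decreased, and 2 had no promoter peak in any list. ISG15, a ubiquitin-like modifier, had H3K27ac of 21.7 in C4-2B and 17.1 in C4-2BER and H3K18ac of 5.82 and 6.51. OAS3, a sensor of double-stranded RNA that makes 2-5A (ENSG00000111331.14, chr12:112938051-112976460), had 21.3 in C4-2B and 7.62 in C4-2BER, a log2 ratio of -1.49. OAS3 was the only member called decreased for H3K27ac, and its H3K18ac was 8.77 and 4.78. Its peak was 1077 bp wide in C4-2B and 4230 bp in C4-2BER. The OAS3 call was lost when C4-2BER was rescaled to a median log2 ratio of 0.

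OAS1, the neighbouring synthetase upstream of OAS3, went the other way. OAS1 H3K27ac was 2.13 in C4-2B and 4.33 in C4-2BER, a log2 ratio of 1.02, just past the ratio of 2 that makes a call. OAS1 H3K18ac was at no promoter peak in C4-2B and 3.36 in C4-2BER. A C4-2B peak of that mark, at 2.27, began 1653 bp after the OAS1 start, beyond the 1000 bp searched. Widening the search to 2000 bp took the OAS1 H3K18ac call away, as did keeping only peaks of at least 4-fold. OAS2, the next synthetase, had 3.19 and 4.84 for H3K27ac and 3.18 and 4.51 for H3K18ac, a ratio short of a call in both marks. In C4-2B the 3 OAS promoters thus ranged from 2.13 to 21.3, and in C4-2BER from 4.33 to 7.62.

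The IFIT genes, whose products bind viral RNA and curb its translation, lie in a cluster on chromosome 10, and of the 3 members among them IFIT1 and IFIT2 were called increased in both marks and IFIT3 in H3K18ac alone. IFIT5, a gene of the same family and chromosome that is not a member, was called in neither mark, with H3K27ac of 12.7 and 10.09 and H3K18ac of 8.93 and 5.67 in C4-2B and C4-2BER. IFIT1 (ENSG00000185745.10, chr10:89392546-89406487) had no promoter peak in C4-2B and 3.47 for H3K27ac and 3.57 for H3K18ac in C4-2BER. IFIT2 (ENSG00000119922.11, chr10:89283694-89309271) had no promoter peak in C4-2B and 3.87 and 3.02 in C4-2BER. IFIT3 had H3K27ac of 2.28 in C4-2B and 3.97 in C4-2BER, a log2 ratio of 0.80 that is no call, and H3K18ac at no peak and 3.89. The 3 H3K27ac peaks of C4-2BER are separate peaks of 2521, 2276 and 1261 bp that each cover a start site. At IFIT1 the H3K18ac peaks of C4-2BER flanked the start, at -1414 to -750 bp and at 653 to 1180 bp, and the IFIT1 call for that mark was lost with a window of 500 bp. Among peaks of at least 4-fold the H3K27ac calls of IFIT1 and IFIT2 and the H3K18ac calls of all 3 genes were lost. With all annotated start sites the IFIT3 H3K18ac call was lost as well.

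**Figure D3:**
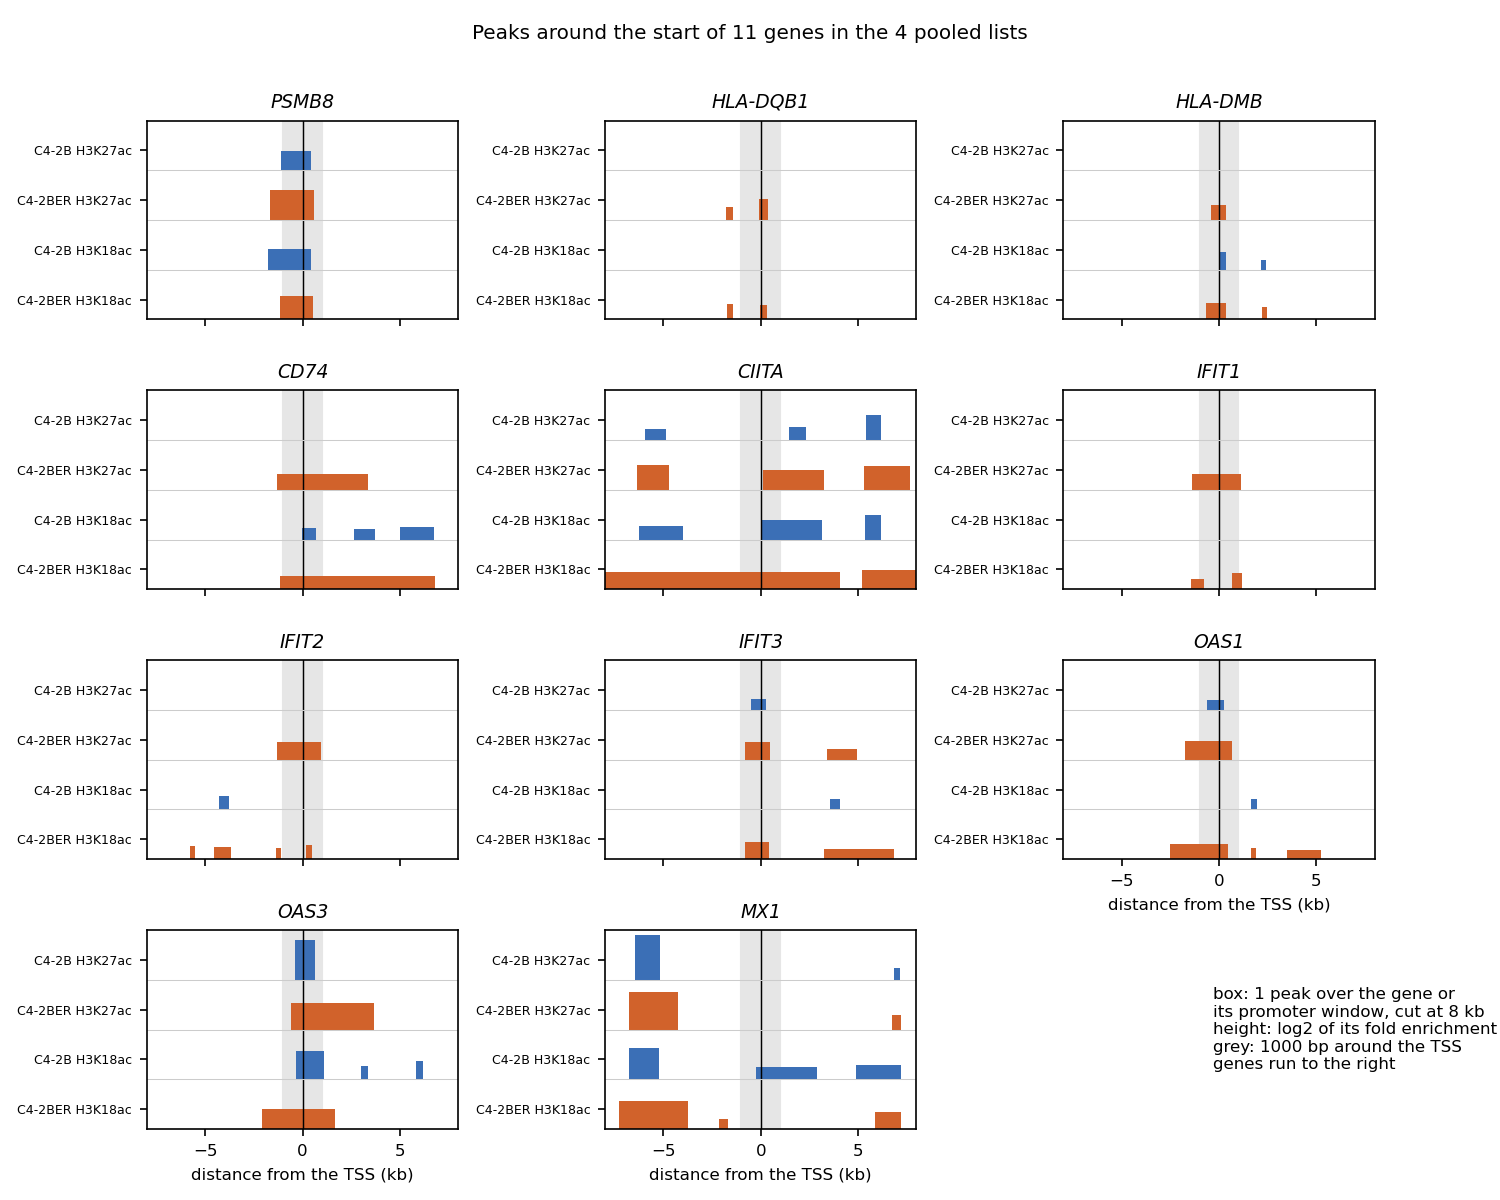
Peaks of the 4 lists around the canonical start of 11 genes, by distance in kb with the gene running to the right, C4-2B in blue and C4-2BER in orange; box height is the log2 fold enrichment, and only peaks over the gene or its promoter window are drawn. IFIT1, IFIT2 and HLA-DQB1 have no box at the start in C4-2B, and MX1 has its tallest boxes about 6 kb before the canonical start in all 4 lists.

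MX1 and MX2, dynamin-like GTPases that block viruses, had no H3K27ac peak at the canonical start in either line. MX1 H3K18ac was 2.65 in C4-2B and at no peak in C4-2BER, the only decreased call of that mark. That call rests on the choice of start site. An H3K27ac peak of 31.4 in C4-2B and 17.96 in C4-2BER lay from -6462 to -5176 bp and from -6772 to -4244 bp relative to the canonical start, over 11 and 12 of the 34 annotated starts of MX1. H3K18ac there was 11.0 and 8.73, so MX1 was strongly marked in both lines at a start its canonical transcript does not use. MX2 had H3K18ac of 3.15 and 2.51.

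IFI44 and IFI44L, effectors of less settled function, had no promoter peak in any of the 4 lists. The nearest H3K27ac peak of C4-2BER lay 2414 bp before the IFI44L start, with a fold enrichment of 2.45, and an H3K18ac peak within intron 2 of IFI44 had 3.04 in C4-2B and 2.97 in C4-2BER. IFI6, which limits apoptosis, had H3K27ac of 4.21 and 5.82, and IFI27 had 2.44 and 2.17. CD274, which encodes the checkpoint ligand PD-L1, had 5.47 in C4-2B and 5.41 in C4-2BER for H3K27ac and 3.85 and 3.63 for H3K18ac.

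Promoter sequences were set beside these values because effectors with like promoter letters differed in acetylation. The ISRE core was searched as GAAANNGAAA and GAS as TTCNNNGAA, on both strands of the 300 bases around the RefSeq start, with overlapping matches counted each. An ISRE core was in 15 of the 32 members with a RefSeq promoter and in 3.12% of 15343 protein-coding genes, and GAS was in 7 and in 6.69%. By role the ISRE core was in 8 of 10 effectors and 5 of 6 genes of the transport and loading group, and in 0 of 8 class II molecules. The 250 bases before the start are printed here for IFIT1 (chr10:89392373-89392622), IFIT3 (chr10:89327747-89327996), OAS3 (chr12:112938224-112938473) and IFI44L (chr1:78620198-78620447), from RefSeq on GRCh38.p14, all on the plus strand, with ISRE cores in capitals, and for OAS1 (chr12:112906712-112906961) with its GAS match in capitals.
IFIT1: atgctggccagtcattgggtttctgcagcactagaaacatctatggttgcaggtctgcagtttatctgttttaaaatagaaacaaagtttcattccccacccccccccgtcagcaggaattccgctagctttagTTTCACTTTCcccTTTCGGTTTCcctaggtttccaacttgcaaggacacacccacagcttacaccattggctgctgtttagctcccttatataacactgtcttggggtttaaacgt
IFIT3: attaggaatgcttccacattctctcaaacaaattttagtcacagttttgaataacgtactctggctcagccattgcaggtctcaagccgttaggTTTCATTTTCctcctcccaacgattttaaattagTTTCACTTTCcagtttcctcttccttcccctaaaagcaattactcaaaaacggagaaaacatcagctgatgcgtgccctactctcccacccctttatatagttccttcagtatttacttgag
OAS3: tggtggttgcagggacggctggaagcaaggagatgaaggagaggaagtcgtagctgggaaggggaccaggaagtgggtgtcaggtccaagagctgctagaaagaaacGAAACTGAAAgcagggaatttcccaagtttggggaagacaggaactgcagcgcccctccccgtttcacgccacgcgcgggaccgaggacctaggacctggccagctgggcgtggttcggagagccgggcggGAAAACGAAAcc
IFI44L: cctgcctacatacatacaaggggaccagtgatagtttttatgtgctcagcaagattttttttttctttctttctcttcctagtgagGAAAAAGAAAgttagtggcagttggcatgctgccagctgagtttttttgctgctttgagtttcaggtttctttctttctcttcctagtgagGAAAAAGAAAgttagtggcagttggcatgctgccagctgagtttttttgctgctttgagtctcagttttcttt
OAS1: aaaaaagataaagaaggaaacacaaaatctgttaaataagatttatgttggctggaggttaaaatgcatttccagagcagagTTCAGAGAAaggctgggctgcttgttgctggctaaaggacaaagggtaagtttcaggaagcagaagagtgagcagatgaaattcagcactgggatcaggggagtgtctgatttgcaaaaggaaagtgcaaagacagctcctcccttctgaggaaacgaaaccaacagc
Each of IFIT1, IFIT3, OAS3 and IFI44L holds 2 ISRE cores, between -116 and -94 bases from the start in IFIT1, between -156 and -113 in IFIT3, at -143 to -134 and -12 to -3 in OAS3, and at -164 to -155 and -73 to -64 in IFI44L. Beside the same count of cores stood a gain in both marks at IFIT1, a decrease at OAS3 and no peak at IFI44L. OAS1 holds no ISRE core of this spelling in the window and a GAS match at -168 to -160 bases from its start. At MX1 a core lies 12 to 21 bases after the RefSeq start at -5681 bp from the canonical start, inside the strong peak, and the 30 bases around it (chr21:41420559-41420588, plus strand) read as follows.
MX1: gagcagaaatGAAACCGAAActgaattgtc
No ISRE core or GAS match was found in the RefSeq promoter at the canonical MX1 start, where no H3K27ac peak was listed.

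H3K27ac peaks also covered more of the members' gene bodies in C4-2BER. The median share of the annotated gene covered by H3K27ac peaks was 6.25% in C4-2B and 14.0% in C4-2BER, higher in C4-2BER at 29 members, lower at 4 and equal at 7. Over all protein-coding genes the medians were 5.53% and 6.90%, higher at 10769 and lower at 5150. H3K18ac covered 18.4% and 20.6% of the members at the median, higher at 22 and lower at 13, beside 13.4% and 13.7% over all genes. Without the promoter window the H3K18ac order turned, with 11.4% in C4-2B and 9.52% in C4-2BER. CD74 went from 0.0% to 30.1% for H3K27ac, IRF1 from 20.2% to 50.3%, IFI6 from 12.2% to 47.9% and HLA-C from 38.6% to 100%. Peaks of C4-2BER were wider in general, with H3K27ac peaks on 145 Mb against 117 Mb in C4-2B, so a larger share of a gene goes with wider peaks as well as with more of them.

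A further 66 genes belong to the same processes. Among them H3K27ac was called increased at 5 and decreased at 3 of the 66, and H3K18ac at 3 and 2, beside the genome shares given above. The receptors and kinases upstream were strongly marked in both lines. H3K27ac was 37.9 and 25.4 at IFNAR1 and 18.9 and 15.9 at IFNAR2, which form the type I interferon receptor, and 32.8 and 22.7 at IFNGR2. The kinases JAK1, JAK2 and TYK2 had 24.2 and 16.2, 38.1 and 22.6, and 21.2 and 13.6. IFNGR1, the ligand-binding chain of the interferon gamma receptor, was called decreased in both marks, with H3K27ac of 29.0 and 13.8 and H3K18ac of 12.5 and 6.16. CTSS, the protease that trims the invariant chain, and GBP2, an interferon-induced GTPase, were called increased in both marks, with no peak in C4-2B and H3K27ac of 2.96 and 2.72 and H3K18ac of 2.58 and 3.82 in C4-2BER. IFNB1, TLR3, GBP1, IFI16, TRIM22 and PDCD1LG2 had no promoter peak in any list.

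The MHC on chromosome 6 is hard to map because of its duplicated and variable genes, so the other genes there were read in the same way, a comparison chosen after seeing the data. Across the span of the HLA members (chr6:29722775-33089696) 120 protein-coding genes are not members. An H3K27ac promoter peak was at 70.0% of them in C4-2B and 75.0% in C4-2BER, beside 69.2% and 69.6% outside the span. H3K27ac was called increased at 9 of the 120, 7.50%, against 3.27% outside the span, and decreased at 2, 1.67%, against 8.06%. H3K18ac was called increased at 2 of the 120, 1.67%, against 2.09%, and decreased at 6, 5.00%, against 6.13%. The part of the region in the members' gains was not tested.

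Most members called increased had GC-poor promoters, as did most members without a peak in C4-2B. The 10 members with increased H3K27ac had a median GC content of 45.2% within 1000 bp of the start, beside 51.8% over the 40 members and 55.6% over the 663 genes with increased H3K27ac. Of the 17 members without an H3K27ac promoter peak in C4-2B, 11 were in the lowest of 5 GC groups, with up to 48.3% GC. Of these 11, 6 had a peak in C4-2BER, beside 4.61% of the 2907 genes in that state. In GC group 2, the next higher, it was 2 of 2, beside 9.11% of 1175 genes. In groups 3 and 4 it was 0 of 3 and 0 of 1. For H3K18ac the lowest group held all 10 members without a C4-2B peak. Of these 10, 6 had a peak in C4-2BER, beside 13.4% of 2401 genes. The GC groups were chosen after seeing the data, and the part of GC content in the gains was not tested.

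**Figure D4:**
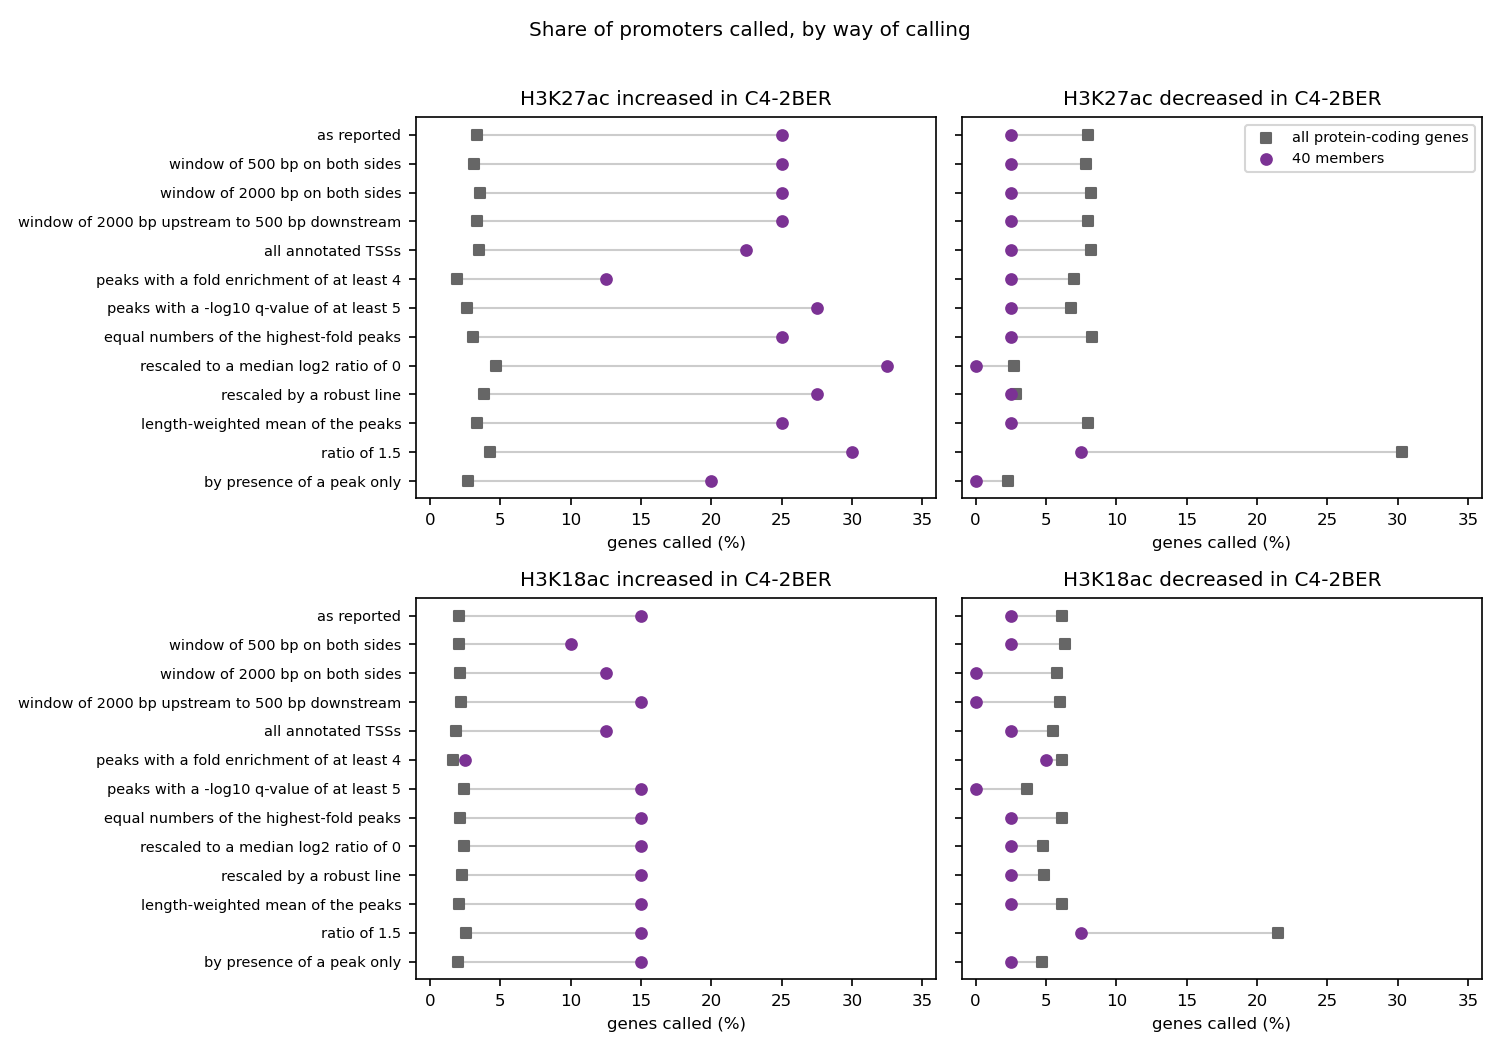
Share of the 40 genes (purple circles) and of all protein-coding genes (grey squares) called increased (left) or decreased (right) in C4-2BER, in percent, as reported and under 12 other ways of calling, for H3K27ac (top) and H3K18ac (bottom). For increased H3K27ac the members lie to the right of the genome under each way of calling, from 5 to 13 members, and for increased H3K18ac the points come close among peaks of at least 4-fold, where 1 member and 1.62% of genes were called. That member is not among the 6 called as reported.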

How the data were processed

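The 10 samples were 8 ChIP libraries and 2 inputs, and the files used were 4 pooled peak lists, 1 per mark and line. Per the study's methods, the authors aligned reads to GRCh38 with bowtie2, kept a mapping quality of at least 10, removed duplicates and blacklisted regions, merged replicates and called broad peaks with macs2. The submitters' processing notes name Bowtie2 2.2.3, Trimmomatic 0.33, bcl2fastq 2.17, Picard and deepTools. The deposited fold enrichment is a ratio of pooled ChIP signal to local background, and the deposited −log10 q-value is that of each peak. Replicates and depth cannot be recovered from pooled lists, so no p-value, error or interval is given.

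Peaks were joined to GENCODE 44 protein-coding genes on GRCh38, using the Ensembl canonical TSS with 1000 bp on each side and the annotated gene body, in Python 3.11.15 with numpy 2.4.6, pandas 2.3.3 and matplotlib 3.10.9. Where several peaks overlapped a window the highest fold enrichment was taken. Calls needed a ratio of 2 or a peak in 1 line only. The calling steps, tested on simulated data for 5000 genes, recovered 200 of 200 planted changes in each direction. The planted peaks held no noise, so this checks the code and not how many real changes the calls find. Promoter sequences came from RefSeq (GRCh38.p14), where 32 of the 40 members matched. Given in full are members called in either mark, the 2 highest H3K27ac promoters of each role group, and members without any peak. Of the 66 other pathway genes, those called in both marks, those without a peak and the receptors and kinases are named. The members and lists were chosen with earlier results of these data known. Alternatives were other windows, start sites, peak thresholds, rescalings, ratios and peak summaries. The peak p-values and the input libraries were not used here. Results for some marker genes are not reported here.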

Additional observations from a re-analysis of the deposited data

How the results depend on the processing

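No paired analysis was possible because the replicates were merged before peaks were called, and for the same reason no library could be left out. Among peaks of at least 4-fold, H3K27ac was called increased at 5 members against 1.93% of all genes and H3K18ac at 1 against 1.62%. Of the 5, 4 were also called increased without that threshold, and the 1 member called for H3K18ac was not. All 6 H3K18ac increases called without the threshold were thus lost. With the threshold H3K18ac was called decreased at 2, and H3K18ac promoter peaks were at 18 members in C4-2B and 17 in C4-2BER. Median gene body coverage was then 1.46% and 2.56% for H3K18ac in C4-2B and C4-2BER and 2.71% and 6.95% for H3K27ac. Among peaks whose −log10 q-value reached 5, H3K18ac coverage was 4.80% and 7.04%, H3K27ac coverage was 2.76% and 10.2%, and H3K18ac was called decreased at 0. Without the promoter window, coverage was 11.4% and 9.52% for H3K18ac and 0.187% and 7.30% for H3K27ac, so the order of the lines for H3K18ac depends on the promoter. Rescaled to a median log2 ratio of 0, the log2 ratios of the members had a median of 0.17 (H3K27ac) and 0.25 (H3K18ac), and rescaled by a robust line of 0.15 and 0.14, whereas as deposited the medians were -0.34 and -0.09. Decreased H3K27ac was at 0 members after rescaling to the median and by presence alone, and at 3 with a ratio of 1.5. Decreased H3K18ac was at 0 members with 2000 bp on both sides or 2000 bp upstream and 500 bp downstream, and at 3 with a ratio of 1.5. Of the 18 single-gene calls, each tried under 12 alternatives, the call held in 185 cases, was lost in 29 and changed sign in 2. Many of these calls rest on a peak in 1 line only. For them the rescalings, the ratio of 1.5, presence alone and the length-weighted mean of the peaks could not change the call. Those cases count as held by construction. Both changes of sign came with all annotated start sites, at CIITA and HLA-DMA. There the C4-2BER minus C4-2B difference in H3K27ac fold enrichment was -5.93 and -10.27, from peaks that cover the starts of DEXI and BRD2. The unknown depth limits all absences of a peak, which may be peaks below the threshold of a list.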

Other observations

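The strongest H3K27ac peak over several members' annotated bodies, outside the promoter window, covered the canonical start of another gene. At CIITA it had 19.9 in C4-2B and 14.0 in C4-2BER and covered the start of DEXI. At HLA-DMA, where the promoter had 2.90 in C4-2BER only, the body peak had 26.2 and 16.0 and covered the start of BRD2, a bromodomain reader of acetylated histones. At ISG15 it had 22.7 and 17.6 and covered the start of HES4, and at TAPBP it had 21.4 and 12.1 and covered the start of RGL2. Coverage of these gene bodies therefore includes acetylation at other genes' promoters. No other canonical start lay under the strongest H3K27ac body peak of IRF1, which had 12.9 in C4-2B and 7.58 in C4-2BER, or of IFIT3, which had 7.71 and 8.54 and began 44898 bp after its start in C4-2B.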
